A study of Mus musculus with 8 samples.

Results

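The enzymes of the tricarboxylic acid (TCA) cycle, the pyruvate dehydrogenase complex and the malate-aspartate shuttle were followed at the level of their transcripts in fasted mouse liver that lacked pyruvate carboxylase. The set holds 35 genes, taken from a list of symbols, and all 35 had reads among the 35275 genes of the count table. Of these, 34 passed the filter on low counts and were tested, whereas Me3 had 32 reads over all libraries and was not. The liver RNA came from 4 Pcx L-/- mice and 4 littermate Pcx f/f mice, which the sample labels call WT and which are called controls here. All 8 mice were C57BL/6 males aged 9 weeks and were fasted for 24 h, and each gave 1 library. Both groups derive from the same floxed line, made in C57BL/6NTac mice, in which exon 10 of Pcx is flanked by loxP sites. The Pcx L-/- mice also carried Albumin-Cre, whose promoter is active in hepatocytes, so that the other cells of the liver are expected to keep the gene. A single nutritional state was sequenced.

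The pyruvate dehydrogenase complex makes acetyl-CoA, which citrate synthase joins to oxaloacetate in the opening step of the TCA cycle. Pyruvate carboxylase makes oxaloacetate, which replaces the cycle intermediates that leave for glucose synthesis. In fasted liver, oxaloacetate leaves mitochondria largely as malate or aspartate, and the malate dehydrogenases and aspartate aminotransferases of the matrix and the cytosol interconvert these metabolites and carry reducing equivalents between the compartments.

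Libraries held between 12016242 and 20023108 reads on genes. Pcx itself had between 556 and 758 normalized counts in Pcx L-/- liver and between 14371 and 22059 in control liver, so that each library matched its label. Normalized counts are reads brought to a common library size with edgeR's TMM factors. The hepatocyte markers Alb, Apoa1, Ttr, Cps1 and Hnf4a were all abundant. Their summed normalized count was 872767 to 1335563 in Pcx L-/- and 1525287 to 1893140 in control liver. This sum was mostly Alb, with means of 819900 and 1268428. Alb lay below all controls in every Pcx L-/- mouse but was not called (adjusted p = 0.0533 by edgeR). Of the 5, only Apoa1 was called lower, and Ttr, Cps1 and Hnf4a overlapped between genotypes. In bulk tissue, fewer cells of a type and less RNA per cell cannot be told apart. The part of these hepatocyte marker differences in the values below was not tested. Of 18 tested markers of Kupffer cells, endothelial cells, stellate cells and lymphocytes, 0 were called by edgeR's quasi-likelihood test (at an unadjusted p under 0.05, 2, and by DESeq2's Wald test, 0). Of the 6 muscle and adipose markers, Acta1, Lep and Retn had no reads, and Ckm, Myh4 and Adipoq had 1, 1 and 4 reads over all libraries. Of the cholangiocyte markers, 1 of 5, Sox9, was called lower, with a median log2 fold change of -0.47 and a summed normalized count of 309.5 to 390.9 in Pcx L-/- and 341.1 to 609.0 in control liver. Genes that mark the zones of the liver lobule were also lower in part. The periportal list had 2 of 5 genes called lower (Cyp2f2 and Arg1), a median of -0.81 and sums of 93792 to 173650.2 against 124583 to 188689. The pericentral list had 1 of 6 called lower (Cyp2e1), a median of -0.33 and sums of 99866 to 210474 against 218243 to 249329.6. The part of these cell and zone markers in the values below was not tested. Summed hemoglobin and Alas2 transcripts reached 69307 in Pcx L-/- replicate 1, against 6244 in the lowest Pcx L-/- library and 4747 to 16715 in control liver. Replicate 1 was also the sole Pcx L-/- mouse with a number in the 500s, as were control replicates 1 and 2, and the other 5 mice had numbers in the 800s. The sources used here do not give what these numbers stand for.

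Transcripts for citrate synthase, mitochondrial malate dehydrogenase and the malic enzymes Me1 and Me2 rose in Pcx L-/- liver. Those for cytosolic glycerol-3-phosphate dehydrogenase, the ADP-forming succinyl-CoA ligase, cytosolic isocitrate dehydrogenase and cytosolic aconitase fell. With the threshold at an adjusted p of 0.05 (edgeR, quasi-likelihood test), 5 of 34 genes were higher, which is 14.7%, where 14.1% of all 13168 genes tested were higher. The lower genes numbered 9, or 26.5%, against 13.5% of all genes tested. Together these 14 made up 41.2% of the set, against 27.6% of all genes. The values of all 4 Pcx L-/- mice lay outside the range of the controls for 12 genes, 4 of them above and 8 below, which is 35.3% against 27.6% of all genes. The median log2 fold change of the set was -0.21, beside -0.005 over all genes tested. The higher genes were Cs, Mdh2, Me1, Me2 and Sdhaf2, and the lower ones were Pdha1, Pdhx, Aco1, Idh1, Sucla2, Sdhd, Mdh1, Gpd1 and D2hgdh. These are changes in RNA only. The study's own Western blots of liver covered the proteins of Cs, Mdh2, Pdha1, Got2 and Sdhb. It reports that the amounts probed did not change, and the legend does not give whether those mice were fasted.

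**Figure D1:**
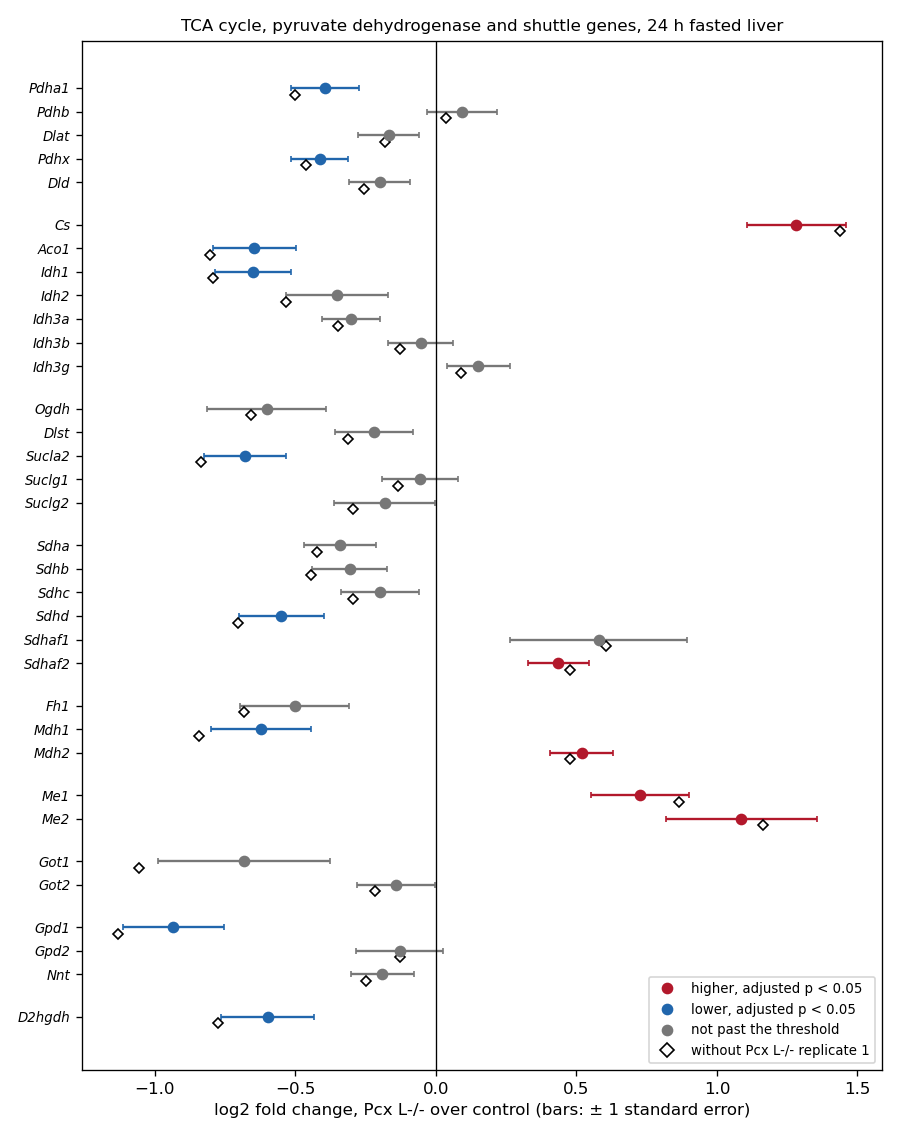
Log2 fold change of each of the 34 tested genes in Pcx L-/- over control liver (horizontal axis, bars ± 1 standard error), grouped by step of the pathway, with filled circles colored by the test result and open diamonds for the fit without Pcx L-/- replicate 1. Cs lies farthest to the right at 1.28 and Gpd1 farthest to the left at -0.93 among the filled circles, and without replicate 1 most lower genes lie farther from 0.

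Of the genes encoding enzymes that work in the cytosol (Aco1, Idh1, Mdh1, Me1, Got1 and Gpd1), 4 of 6 were lower and 1, Me1, was higher, with a median log2 fold change of -0.65. Of the 28 tested genes for mitochondrial proteins, 5 were lower and 4 higher, with a median of -0.19. Over all genes tested, 13.5% were lower and 14.1% higher. The same 5 genes were higher in 21 alternative analyses, whereas the number of lower genes ranged from 4 to 16. It was 4 of 34 with scaling by library size only, and 6 were then higher, so that the share of higher among all called genes went from 35.7% to 60%. That scaling moved the median of all genes to 0.28 and called 29.7% of all genes higher and 6.61% lower. Relative to zero, 10 of the 26 negative fold changes of the set became positive under it, and none of these 10 genes was called in the main test. DESeq2's Wald test called 5 genes higher and 13 lower, where it called 13% and 13.4% of all genes.

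The choice of mice mattered most through Pcx L-/- replicate 1. This mouse had the highest value of its genotype at 27 of 34 genes, and of the 14 called genes it lay nearest to the controls at 13. Its median log2 difference from the control mean was 0.005 over the set, compared with -0.32, -0.34 and -0.30 in Pcx L-/- replicates 2, 3 and 4. Without it, 5 genes were higher and 16 lower, where 16.7% and 17.8% of all 13330 genes then tested were. The 7 genes added were Idh2, Idh3a, Ogdh, Sdha, Sdhb, Fh1 and Got1. With replicate 2, 3 or 4 left out instead, 5 genes were lower each time, where 7.86%, 8.28% and 7.11% of all genes were. With control replicate 1 or 3 left out, 6 were lower, where 9.91% and 9.19% of all genes were. The part of the red blood cell transcripts or of the series of mouse numbers in the position of replicate 1 was not tested.

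**Figure D2:**
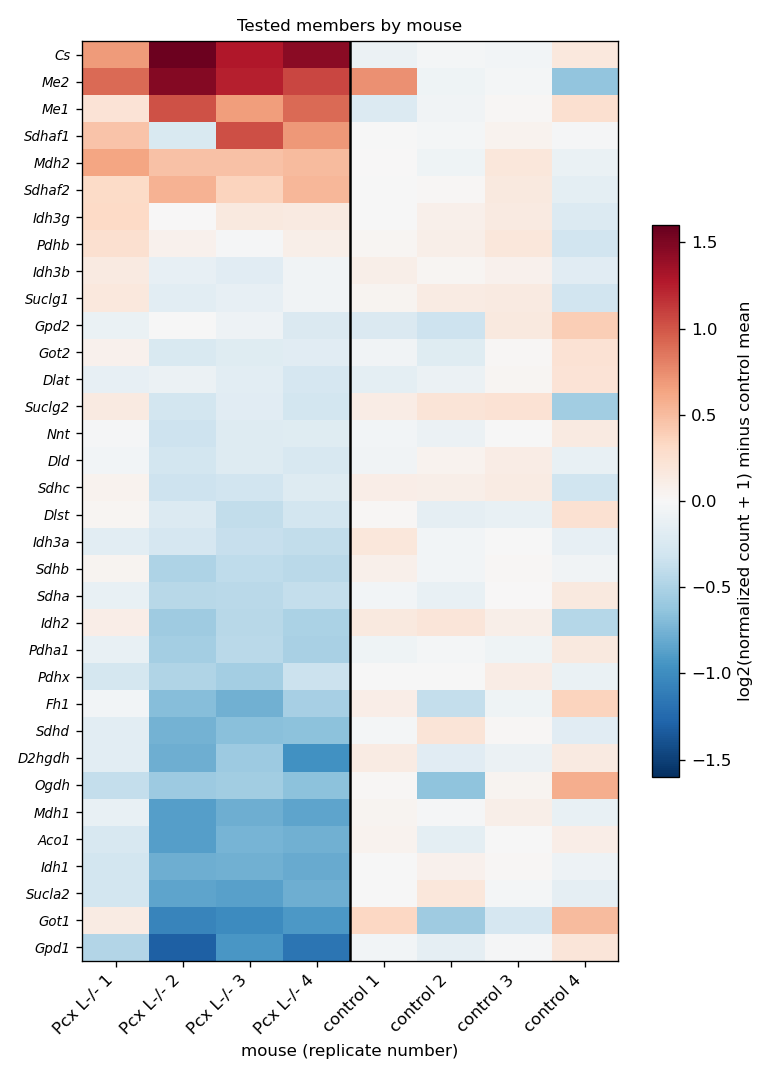
Heat map of the 34 tested genes (rows, ordered by fold change) in the 8 mice (columns), colored by log2(normalized count + 1) minus the control mean of that gene. Pcx L-/- replicates 2 to 4 look alike, and replicate 1 is paler than they are for most of the lower genes.

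The pyruvate dehydrogenase complex joins a decarboxylase (E1, with α subunit Pdha1 and β subunit Pdhb), an acetyltransferase (E2, Dlat), a protein that anchors the third enzyme (Pdhx) and a dihydrolipoamide dehydrogenase (E3, Dld). Pdha1 had 1659.8, 1234, 1334 and 1248 normalized counts in Pcx L-/- replicates 1 to 4 and 1714, 1761, 1718 and 2008 in control replicates 1 to 4. All Pcx L-/- values lay below all control values, although replicate 1 came close to the lowest control. This was a log2 fold change of -0.40 ± 0.12 (SE, adjusted p = 0.0322 by edgeR). This call was lost without any one of the mice other than Pcx L-/- replicate 1, with adjusted p between 0.0527 and 0.107. Exons of Map3k15 lie opposite 603 bases of Pdha1 exons, and the sources used here do not give whether the counting used strand, but Map3k15 had 286 reads in all. Pdhx had 469.9, 408, 389.6 and 449 against 567.2, 569, 617 and 529.5 normalized counts, without overlap. On the log2 scale the change was -0.41 ± 0.10 (SE, adjusted p = 0.0129), a call that held without any one mouse. Neither Pdha1 nor Pdhx was called with scaling by library size only (adjusted p = 0.391 and 0.406). The other subunits were not past the threshold, with log2 fold changes of 0.09 for Pdhb, -0.17 for Dlat and -0.20 for Dld.

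Cs encodes citrate synthase, which joins acetyl-CoA and oxaloacetate at the entry of the cycle. It had 2484, 4620.2, 3786 and 4225 normalized counts in Pcx L-/- replicates 1 to 4 and 1453, 1517, 1509 and 1741 in controls. Every Pcx L-/- mouse was above every control, with the lowest value in replicate 1, and the mean was 2.43 times that of controls (3779 ± 928 against 1555 ± 127, SD, n = 4 each). The log2 fold change of 1.28 ± 0.18 (SE, adjusted p = 0.000999 by edgeR) was the largest of the set in either direction. It lay between 1.15 and 1.59 over all 21 alternatives, and was called in each. Within the mice numbered in the 800s, 3 Pcx L-/- and 2 controls, the mean log2 difference was 1.37, and within the 500s, 1 against 2, it was 0.74. Cs lies on chromosome 10 from 128337734 to 128362479 of GRCm38 on the plus strand.

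The steps from citrate to 2-oxoglutarate did not follow Cs. Aco1, the cytosolic aconitase that also acts as an iron regulatory protein, had 3472, 2253, 2477 and 2423 against 4317, 3710.1, 4121 and 4469 normalized counts. The ranges were apart, and the log2 fold change was -0.65 ± 0.15 (SE, adjusted p = 0.00951). Idh1, the cytosolic NADP-dependent isocitrate dehydrogenase, had 3652, 2604, 2625 and 2571 in Pcx L-/- mice and 4467, 4692, 4567 and 4251 in controls. Replicates 2 to 4 were close to each other, and replicate 1 stood between them and the controls. The log2 fold change of Idh1 was -0.65 ± 0.14 (SE, adjusted p = 0.00618), and both Aco1 and Idh1 were called in all 21 alternatives. Idh2, its mitochondrial NADP-dependent counterpart, had 2114, 1322, 1438 and 1380.2 against 2191, 2248, 2097 and 1436 and was not past the threshold (-0.35, adjusted p = 0.178). Here replicate 1 and control replicate 4 each lay among the mice of the other genotype, and the adjusted p was 0.0196 without the first and 0.0485 without the second. The NAD-dependent enzyme of the cycle is built of Idh3a, Idh3b and Idh3g. Its catalytic subunit Idh3a had 702, 656, 614 and 602 against 898, 765, 788 and 721 normalized counts, which do not overlap, with a log2 fold change of -0.30 ± 0.10 (SE, adjusted p = 0.0504). It was past the threshold in 6 of 21 alternatives. Idh3b and Idh3g, the other subunits, had log2 fold changes of -0.05 and 0.15 and were not called.

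Because the genes at the entry of the cycle were called in opposite directions, the 250 bases before their RefSeq starts (build GRCm38.p6) are shown, 5′ to 3′ on the strand of the gene. Capitals mark every match, on either strand, to 5 motifs whose letters do not contain each other. These are the CCAAT box CCAAT, the GC box GGGCGG, the estrogen-related receptor element AAGGTCA, the NRF1 core CGCATGCG and the ATF4 element TGATGNAA. The stretches lie at chr10:128337477-128337726 on the plus strand for Cs, at chr2:103073514-103073763 on the minus strand for Pdhx and at chrX:160138431-160138680 on the minus strand for Pdha1.
Cs: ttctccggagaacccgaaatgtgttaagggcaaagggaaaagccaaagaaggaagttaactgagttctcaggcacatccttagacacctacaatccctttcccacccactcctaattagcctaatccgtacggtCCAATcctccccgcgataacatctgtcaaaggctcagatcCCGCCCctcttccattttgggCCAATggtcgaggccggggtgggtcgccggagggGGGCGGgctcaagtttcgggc
Pdhx: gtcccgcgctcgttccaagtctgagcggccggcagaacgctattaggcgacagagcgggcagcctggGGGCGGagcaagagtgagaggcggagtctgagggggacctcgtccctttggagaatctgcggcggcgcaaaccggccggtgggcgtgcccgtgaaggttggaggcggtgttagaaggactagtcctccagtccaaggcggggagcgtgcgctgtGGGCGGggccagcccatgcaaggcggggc
Pdha1: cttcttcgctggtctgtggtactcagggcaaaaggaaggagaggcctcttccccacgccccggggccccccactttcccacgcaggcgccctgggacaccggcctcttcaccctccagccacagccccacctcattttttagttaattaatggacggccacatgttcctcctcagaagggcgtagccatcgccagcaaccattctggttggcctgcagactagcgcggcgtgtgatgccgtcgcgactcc
Cs held 2 matches to the CCAAT box and 2 to the GC box, Pdhx held 2 to the GC box and 0 to the CCAAT box, and Pdha1 held none of the 5 motifs. Over the windows of 300 bases around the start (250 before and 50 after), which 30 of the 35 genes had, a GC box was found in 21, or 70%, against 66.6% of the 10100 tested genes with a window and 38.2% of all 27025 genes with one. It was present for 4 of 4 higher and 7 of 8 lower genes with a window. A CCAAT box was found for 16 genes, or 53.3%, against 42.6% and 41.1%. It was present for 2 of 4 higher and 3 of 8 lower genes with a window. Pdhx is among these through a match after its start, outside the stretch shown. The ATF4 element was found for Got1 and Me3 (6.67%, against 2.71% and 4.51%), the estrogen-related receptor element for Got1, Ogdh and Sdhd (10%, against 4.24% and 5.38%) and the NRF1 core for Ogdh (3.33%, against 4.22% and 2.07%). A match describes letters and not a bound site.

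The 2-oxoglutarate dehydrogenase complex (Ogdh, Dlst and, shared with pyruvate dehydrogenase, Dld) and succinyl-CoA ligase carry the carbon on to succinate. Ogdh, the decarboxylase of the complex, had 4574, 3997, 4053 and 3774 in Pcx L-/- mice and 6028, 3815, 6158 and 8898 in controls. The Pcx L-/- values were close together, but control replicate 2 lay among them and control replicate 4 was far above the other controls. By edgeR the log2 fold change came to -0.60 ± 0.21 (SE, adjusted p = 0.0552), and without control replicate 2 the adjusted p was 0.00931. Without control replicate 4 the log2 fold change was -0.38 and was not past the threshold. Dlst, its succinyltransferase, had a log2 fold change of -0.22 and was not called. Succinyl-CoA ligase pairs the α subunit Suclg1 with one of a pair of β subunits, Sucla2 for the ADP-forming and Suclg2 for the GDP-forming enzyme. Sucla2 had 2139, 1459, 1435 and 1521 against 2613, 2954, 2557 and 2364 normalized counts. No Pcx L-/- mouse reached the controls, and replicate 1 again lay nearest to them. edgeR gave a log2 fold change of -0.68 ± 0.15 (SE, adjusted p = 0.00691), called in all 21 alternatives. Suclg1 and Suclg2 had log2 fold changes of -0.06 and -0.18, not past the threshold, and for both the lowest control was replicate 4.

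Succinate dehydrogenase, which is also complex II of the respiratory chain, has a flavoprotein (Sdha), an iron-sulfur protein (Sdhb) and a pair of membrane anchors (Sdhc and Sdhd), and assembly factors such as Sdhaf1 and Sdhaf2. Of the 4 subunits only Sdhd was called, with 3415, 2272, 2403 and 2439.9 against 3744, 4416, 3879 and 3379 normalized counts. Replicate 1 lay above control replicate 4, and the other Pcx L-/- mice were below all controls. This was a log2 fold change of -0.55 ± 0.15 (SE, adjusted p = 0.0201), and the adjusted p was between 0.0504 and 0.0701 without Pcx L-/- replicate 2, 3 or 4 or control replicate 2 or 3. Sdha had 8501, 6807, 6877 and 7112 against 8957, 8544, 9261 and 10349, ranges that only just missed each other, with a log2 fold change of -0.34 (adjusted p = 0.0696). Sdhb had 3296, 2278, 2408 and 2373 against 3379, 3102, 3241 and 3079, and Sdhc had a log2 fold change of -0.20. Sdhb was not past the threshold with all mice (-0.31, adjusted p = 0.113) and was past it without Pcx L-/- replicate 1 (-0.45, adjusted p = 0.00503). Sdhaf2, which helps to attach flavin to Sdha, went the other way, with 422, 503, 436 and 495 against 339, 345, 379 and 307 and no overlap. On the log2 scale the change was 0.44 ± 0.11 (SE, adjusted p = 0.0134) and was called in all alternatives. Exons of Cpsf7, with 4038 reads in all, lie opposite 94 bases of Sdhaf2 exons. Sdhaf1, a factor for the iron-sulfur subunit, was near the floor of detection at 13.0 to 32.7 normalized counts in Pcx L-/- and 15.2 to 16.1 in control liver and was not called.

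Fumarase and the malate dehydrogenases close the cycle, and here the mitochondrial and cytosolic malate dehydrogenases were called in opposite directions. Mdh2, the mitochondrial enzyme of the cycle, had 5076, 4536, 4522 and 4638 in Pcx L-/- mice and 3272, 3102, 3691 and 3036 in controls. All Pcx L-/- mice were above all controls, and replicate 1, which lay toward the controls at most called genes, was the highest of all. By edgeR the log2 fold change came to 0.52 ± 0.11 (SE, adjusted p = 0.00728). Mdh1, the cytosolic enzyme of the malate-aspartate shuttle, had 8197, 4815, 5143 and 4919.5 against 9149, 8714, 9452 and 8194. Replicate 1 lay just above the lowest control, and the other Pcx L-/- mice were at 4815 to 5143. edgeR gave a log2 fold change of -0.62 ± 0.18 (SE, adjusted p = 0.0242), it was -0.84 without replicate 1, and the adjusted p was between 0.0584 and 0.0853 without Pcx L-/- replicate 2, 3 or 4 or control replicate 1 or 3. Within the 500s the mean log2 difference of Mdh1 was -0.12 and within the 800s -0.83. Fh1, fumarase, had 5094, 3260.0, 3076 and 3609.8 against 5623, 4008, 4977 and 6683 normalized counts. Its values overlapped, and the log2 fold change of -0.50 did not pass the threshold (adjusted p = 0.0772), but did without Pcx L-/- replicate 1 or control replicate 2 (0.00751 and 0.0411).

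Malic enzymes decarboxylate malate to pyruvate. The transcripts of Me1, the cytosolic NADP-dependent form, numbered 1911, 3344, 2618 and 3089.8 in Pcx L-/- and 1410.1, 1585, 1666 and 1970.4 in control mice after normalization. Replicate 1 lay below control replicate 4, and the others were above all controls. This was a log2 fold change of 0.73 ± 0.17 (SE, adjusted p = 0.0113). Me2, a mitochondrial form that uses NAD, had 70.8, 105, 90.2 and 79.4 against 62.8, 35.8, 36.5 and 23.8 normalized counts. The ranges were apart, the log2 fold change was 1.09 ± 0.27 (SE, adjusted p = 0.0128), and the differences within the 800s and the 500s were 1.59 and 0.57. Both genes were called in all alternatives. Me3, the other mitochondrial form, had at most 9.75 normalized counts in any mouse and at this depth no difference could be detected.

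**Figure D3:**
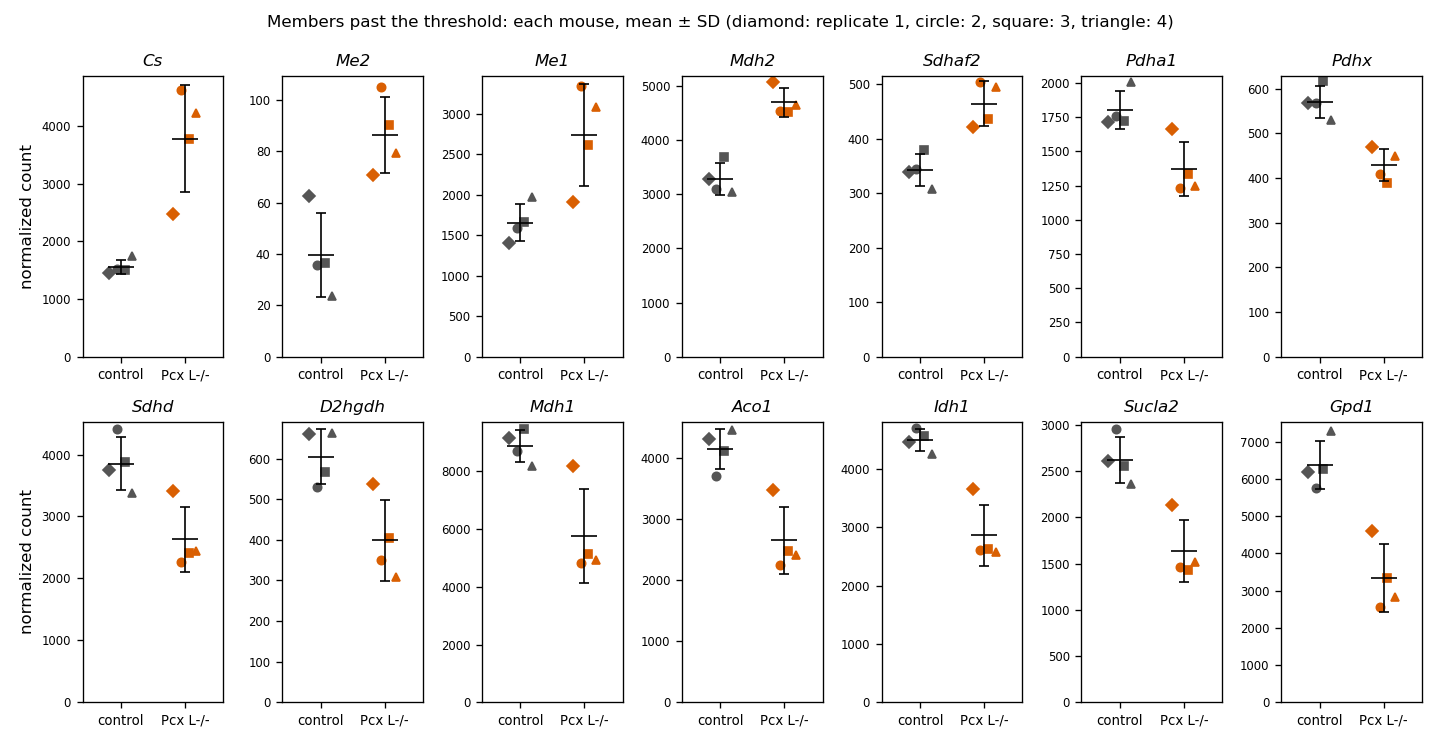
Normalized counts (vertical axes, from 0) of the 14 called genes in each of the 4 control and 4 Pcx L-/- mice, with a symbol for each replicate number and bars for the mean ± SD. The diamonds of Pcx L-/- replicate 1 lie nearest to the controls in 13 panels and farthest in that of Mdh2.

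Got1 and Got2, the cytosolic and mitochondrial aspartate aminotransferases, had the highest FPKM of the set in control liver and were not past the threshold. Got1 had 18321, 8082, 8349 and 8854 in Pcx L-/- and 21077, 11282, 13920.4 and 23748 in control mice. Replicates 2 to 4 were below every control, while replicate 1 was far above them, and the controls themselves spanned 11282 to 23748. On the log2 scale the change was -0.68 ± 0.31 (SE, adjusted p = 0.122) with all mice and -1.06 (adjusted p = 0.00467) without Pcx L-/- replicate 1. The difference was -1.11 within the 800s and 0.25 within the 500s. Got2 had 14488, 11642, 12071 and 12146 against 13234, 12096, 13969.9 and 16218, with a log2 fold change of -0.14 (adjusted p = 0.492).

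The glycerol-3-phosphate shuttle also moves reducing equivalents into mitochondria, by way of the cytosolic NAD-dependent Gpd1 and the membrane-bound flavoprotein Gpd2. Gpd1 had 4607, 2567, 3345 and 2836 normalized counts in Pcx L-/- and 6178, 5769, 6268 and 7296 in control mice. The ranges were well apart, and the mean was 0.523 times that of controls. The log2 fold change of -0.93 ± 0.18 (SE, adjusted p = 0.00435) was the largest decrease of the set and was called in all alternatives. Gpd2 had a log2 fold change of -0.13, not past the threshold. Nnt, the mitochondrial transhydrogenase that passes hydride between NADH and NADP, is deleted in part in C57BL/6J mice but not in C57BL/6N mice. Its normalized counts were 3395, 2738, 2988 and 3011 against 3362, 3238, 3429 and 3810.0, so that every mouse expressed it at a like level, and it was not called (-0.19, adjusted p = 0.24). A further annotated gene of the same name overlaps 3339 bases of its exons on the same strand, but is not among the genes with deposited counts. A total over the gene does not show whether a mouse carried the intact or the partly deleted form. D2hgdh, which oxidizes D-2-hydroxyglutarate to 2-oxoglutarate, had 537, 349.6, 404 and 308 against 660.0, 529.9, 566 and 664. Replicate 1 lay just above the lowest control, and the log2 fold change was -0.60 ± 0.17 (SE, adjusted p = 0.0206). It was above 0.05 (0.0514 to 0.0652) without Pcx L-/- replicate 2, 3 or 4 or control replicate 1.

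Ratios of the transcripts of paired genes within each library were compared next, since no scaling between libraries enters them. They are called isozyme ratios below for short. Gpd1 and Gpd2, however, are different enzymes of the same shuttle, and Sucla2 and Suclg2 are alternative β subunits. For 6 pairs, the log2 ratio of reads was compared by a two-sided exact permutation test, with adjustment over the 6 pairs. The smallest p that groups of 4 mice allow is 0.0286. The ratio of Mdh1 to Mdh2 had log2 values of 0.69, 0.09, 0.19 and 0.09 in Pcx L-/- replicates 1 to 4 and of 1.48, 1.49, 1.36 and 1.43 in controls. The genotypes were apart, the difference in means was -1.18 (exact p = 0.0286, adjusted p = 0.0429), and it stayed between -1.32 and -1.12 without each mouse in turn. On the FPKM scale, which divides by 1 length per gene, Mdh1 was 1.76 to 1.93 times as abundant as Mdh2 in every control. It was 1.11 times as abundant in Pcx L-/- replicate 1 and 0.728 to 0.780 times in the others. The lengths behind these values are 2122 bases for Mdh1 and 1456 for Mdh2, whereas their annotated exons cover 2567 and 3562 bases. Whether Mdh1 lies above or below Mdh2 therefore depends on the length used, but the difference between genotypes does not.

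The ratio of Gpd1 to Gpd2 was lower in every Pcx L-/- mouse than in any control, with a difference of -0.86 (exact p = 0.0286, adjusted p = 0.0429), and in FPKM the median ratio was 13.4 against 25.0. That of Sucla2 to Suclg2 differed by -0.54 (exact p = 0.0286, adjusted p = 0.0429), again without overlap, with median FPKM ratios of 0.487 and 0.662. This difference went to -0.40 without control replicate 4, which had the highest ratio. For Idh1 to Idh2 the difference was -0.31 with the same p values, and the closest mice, Pcx L-/- replicate 2 and control replicate 1, were at 0.98 and 1.03. The difference for Idh1 to Idh2 went from -0.31 to -0.19 without control replicate 4, which had the highest ratio. The ratio of Got1 to Got2 overlapped between genotypes (difference -0.57, exact p = 0.0857, adjusted p = 0.103), with Pcx L-/- replicate 1 at 0.34 and the other Pcx L-/- mice at -0.53 to -0.46. For Me1 to Me2, whose members were both higher, the difference was -0.47 and the values overlapped (exact p = 0.314). It went to -0.18 without control replicate 4 and to -0.79 without control replicate 1.

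**Figure D4:**
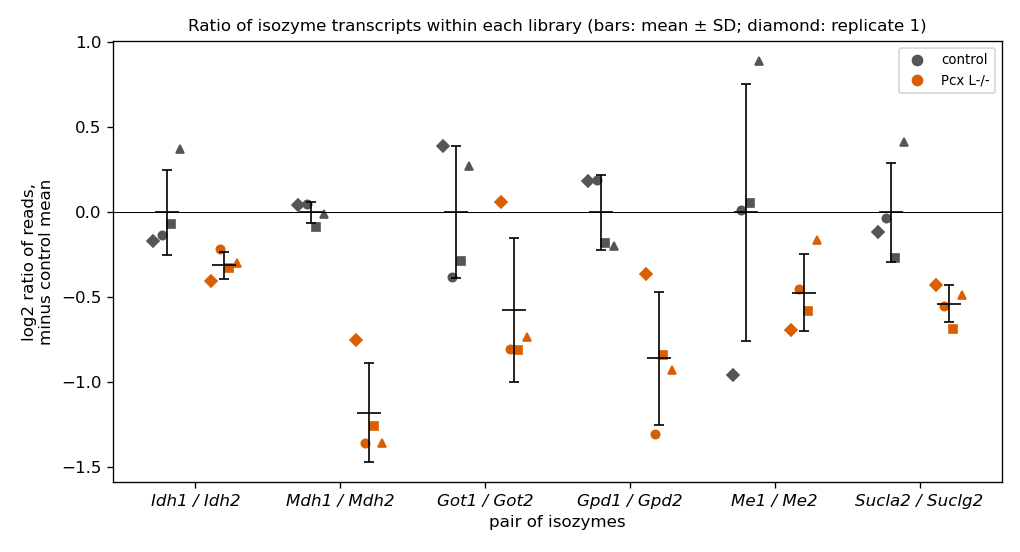
Log2 ratio of reads of 6 gene pairs in each mouse, minus the control mean of the pair (vertical axis), with bars for the mean ± SD of 4 mice. Mdh1 / Mdh2 shows the widest separation, with a difference in means of -1.18, and the diamonds of Pcx L-/- replicate 1 lie highest of their genotype for Mdh1 / Mdh2, Got1 / Got2, Gpd1 / Gpd2 and Sucla2 / Suclg2.

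Levels of different genes were compared per length, as FPKM. These values are scaled by library size, so that Pcx L-/- values lie higher against controls than normalized counts do. The lengths behind them are shorter than the annotated exons for most genes, by differing amounts, so that the order of genes depends on the length used. In control liver the median ran from 464 FPKM for Got1, 293 for Got2 and 232 for Mdh1 down to 0.807 for Me2, 0.339 for Sdhaf1 and 0.0687 for Me3. The ranges of neighbors in this order overlapped for most pairs, among them Got1 and Got2, whereas the range of Got2 lay above that of Mdh1, and that of Mdh1 above that of Sdha. In FPKM, subunits of 1 complex were not at 1 level. In control liver the median was 33.7 FPKM for Pdha1 and 70.3 for Pdhb, and 17.7 for Idh3a against 79.7 for Idh3b. The FPKM lengths of Pdha1 and Pdhb are 2848 and 1485 bases, whereas their annotated exons cover 3734 and 3861, so that the size of this gap depends on the length used. Cs was 25th of 35 in controls, with a median of 29.3 FPKM, and 10th in Pcx L-/- liver, with 95.5. Mdh2 went from 7th to 3rd (121 and 212 FPKM) and Me1 from 26th to 19th (27.1 and 58.4), while Gpd1 went from 8th to 16th (119 and 72.9).

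**Figure D5:**
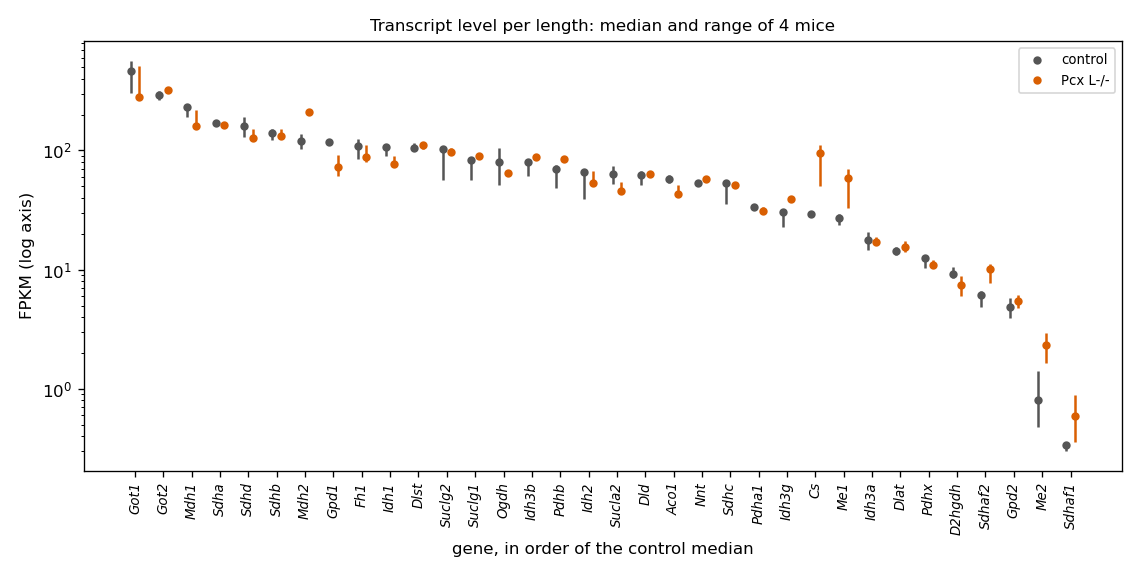
FPKM (logarithmic vertical axis) of 34 genes in order of the control median, with points for the median and lines for the range of 4 mice per genotype. Me3, listed at 0 in control replicate 4, is left out, and the Pcx L-/- ranges of Cs, Mdh2, Me1, Me2 and Sdhaf2 lie above those of the controls. The same holds on this scale for Pdhb, Idh3b, Idh3g, Suclg1, Got2, Nnt and Sdhaf1, which were not called in the main test.

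The wider pathway was described by 43 further genes, of which 41 were tested. Of these, 3 were higher and 12 lower, or 7.32% and 29.3%, against 14.1% and 13.5% of all genes, and the median log2 fold change was -0.15, which went to -0.29 without Pcx L-/- replicate 1 and to -0.10 without replicate 3. The largest change was that of Pcx, the deleted gene (-4.80). It is counted among the 12 lower genes, although its fall was set by the deletion. Among genes for the entry of pyruvate and the control of pyruvate dehydrogenase, the inhibitory kinase Pdk1 had 784, 599.9, 634 and 565 normalized counts against 1217, 1359, 1042 and 1268 and a log2 fold change of -0.92 ± 0.13 (SE, adjusted p = 0.00109). Pdk4, the kinase induced by fasting, had 73.6, 473, 181 and 182 against 65.5, 94.3, 97.8 and 115. Its call (1.31, adjusted p = 0.0496) rested largely on Pcx L-/- replicate 2, without which the log2 fold change was 0.66 (adjusted p = 0.169), and it was lost without any other single mouse except Pcx L-/- replicate 1. Of the carriers, Slc25a13, the aspartate/glutamate carrier of the malate-aspartate shuttle in liver, had 5949, 3313, 4087 and 3996 against 6921, 6521, 7167 and 7478 and fell by 0.70 on the log2 scale (adjusted p = 0.0125). Slc25a12, its paralog, was not called (0.13).

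Among the genes that bring carbon into the cycle or take it out, both forms of phosphoenolpyruvate carboxykinase were called, in opposite directions. The cytosolic Pck1 had 85147, 56218, 71582 and 60230.1 against 108532, 87267, 126240.4 and 128915 (log2 fold change -0.72, adjusted p = 0.0196), and its adjusted p was 0.0505 to 0.0779 without Pcx L-/- replicate 2, 3 or 4 or control replicate 3. The mitochondrial Pck2 had 118, 132, 189.7 and 148 against 71.0, 67.2, 60.2 and 109 and rose by 0.96 ± 0.22 (SE, adjusted p = 0.00881). Glud1, glutamate dehydrogenase, fell by 0.78 (adjusted p = 0.0085) and the liver glutaminase Gls2 by 0.68 (adjusted p = 0.0454), a call that was lost without any one mouse other than Pcx L-/- replicate 1. Dhtkd1, a relative of Ogdh that acts on 2-oxoadipate, fell by 0.97 (adjusted p = 0.0189), with an adjusted p of 0.0503 to 0.0636 without Pcx L-/- replicate 2, 3 or 4 or control replicate 1. Slc25a22, a glutamate carrier, rose by 0.65 (adjusted p = 0.0299), with values of 8302, 14096, 9907 and 13454 against 8010.2, 5519, 7412 and 8223 that did not overlap, and its adjusted p was 0.0533 to 0.0983 without Pcx L-/- replicate 2 or 4 or control replicate 1, 2 or 3. The remaining 5 called genes were all lower, with log2 fold changes from -0.54 to -0.37. None of the 7 genes for lipoylation and for the other complexes that use Dld was called by edgeR (1 at an unadjusted p under 0.05, and 0 by DESeq2's Wald test).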

How the data were processed

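The genes and lists were chosen with earlier results of these data known. Total RNA was extracted from flash-frozen liver, and a company made and sequenced the libraries. The authors deposited raw read counts per Ensembl gene and FPKM values. STAR 2.5, HTSeq 0.6.1, DESeq2 and the build mm10 (GRCm38) are named in the submitters' processing notes, and the sources used here give neither the annotation release nor the use of strand. Of 142384 FPKM values above 0, 100% equal the deposited counts divided by 1 length per gene and the library total, at a relative tolerance of 0.001. Neither table held a column of another sample.

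Symbols came from GENCODE M21 and matched 34490 of 35275 identifiers (97.8%). Counts were tested with edgeR 4.0.16 (R 4.3.3) using TMM factors, filterByExpr (minimum count 10, minimum total 15), the quasi-likelihood F test with genotype as the only term (6 residual degrees of freedom) and Benjamini-Hochberg adjustment over 13168 genes. Approximate standard errors (SE) were taken as the size of the log2 fold change over √F. The biological coefficient of variation was 0.181. Each library came from a separate mouse, and replicates correlated across genes at 0.976 to 0.993 (Spearman). Isozyme ratios used log2((count + 0.5) / (count + 0.5)) and an exact permutation test (SciPy 1.17.1).

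All 35 genes were to be named, with full statistics for called genes and for those whose call changed under an alternative, and up to 10 called genes of the pathway list by size of change. The alternatives comprised further scalings and filters, DESeq2 1.42.0 with and without apeglm 1.24.0, limma 3.58.1 on log2(FPKM + 1) and log2(FPKM + 0.1), the series of mouse numbers, a replicate block, and omission of each mouse. For this comparison simulated on 13201 genes, edgeR recovered 84.5% of 97 genes changed by 1 on the log2 scale and 100% of 96 changed by 2, with 8 false calls. Every gene was simulated with the same coefficient of variation, 0.181, few genes were changed, and no mouse was made to stand apart. Changes smaller than 1 were not simulated, so that these rates do not give the power for the genes of the set. RefSeq promoter windows were searched with Python 3.11.15.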

Additional observations from a re-analysis of the deposited data

Results flagged for a closer look

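For the 4 mice of a genotype, Dixon's ratio (the distance of an extreme mouse from the next one, as a share of the whole range) was compared with its 95% critical value. Of 82 groups tested (35 genes and 6 isozyme ratios in each genotype), 12 exceeded it, where chance flags about 5%. In 9 of the 12 the mouse that stood apart was Pcx L-/- replicate 1, on the side of the controls. Its normalized count was 3652 for Idh1, 2114 for Idh2, 2139 for Sucla2 and 3296 for Sdhb, each above the other 3 Pcx L-/- mice. The same held for Sdhd (3415), Mdh1 (8197) and Got1 (18321), and for the log2 ratios of Mdh1 to Mdh2 (0.691) and of Got1 to Got2 (0.339). Of these genes, Mdh1 went from 4815 to 5143 and Got1 from 8082 to 8854 in the other Pcx L-/- mice. These results share libraries, so the flags are not independent of each other. The part of the red blood cell transcripts of that library in these values was not tested.

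Control replicate 4, the library with the fewest reads, stood apart for Pdha1, with 2008 normalized counts against 1714 to 1761 in the other controls, and for Sdhc, with 2301 against 3060.0 to 3157. Me3 had 4.67 normalized counts in Pcx L-/- replicate 3 and 1.53 to 1.98 in the others of its genotype, which rests on a handful of reads.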

How the results depend on the processing

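Over 21 alternatives the number of higher genes of the set was 5 or 6, and Cs, Mdh2, Me1, Me2, Sdhaf2, Aco1, Idh1, Sucla2 and Gpd1 were called in the same direction in all of them. The 9 lower genes became 4 with scaling by library size only and with limma on log2(FPKM + 1) or log2(FPKM + 0.1), and 14 within the 800s only. Of all genes, 870, 823 and 822 of 13168 were lower with these 3 scalings, and 2129 of 13471 within the 800s. Omitting single mice, the number in the set went from 5 to 16, the highest without Pcx L-/- replicate 1. Over all genes it went from 953 to 2370, the highest again without that mouse. The same 3 scalings moved the median of all genes to 0.28, 0.18 and 0.27, and fold changes of single genes under them were read relative to that median. Read in this way, 3 of the 713 comparisons of a single gene under an alternative reversed, none of them for a called gene. These were Idh3b (0.042) and Suclg1 (0.047) with limma on log2(FPKM + 1) and Gpd2 without control replicate 4 (0.013, and down to -0.232 without other single mice). Of the rest, 640 kept their direction and side of the threshold, 38 lost it and 32 gained it.

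In the pathway list the 3 higher genes became 9 with library size only, 8 with limma at either pseudocount and 5 within the 800s, and 1 to 5 with each mouse left out. Of all genes, 3915, 3822 and 3779 of 13168 were higher with those 3 scalings, and 1887 of 13471 within the 800s. With each mouse left out, 1156 to 2232 of all genes were higher. The 12 lower genes of the pathway list became 6 with each of those scalings, and 7 to 18 with each mouse left out, where the lower genes among all genes moved as given above. The isozyme ratios kept their sign under all alternatives. With 3 mice against 4 the exact test cannot go below 0.0571, so that leaving out a mouse gave a value with no test.

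Same-numbered replicates did not deviate together (correlations of 0.10, -0.13, -0.09 and -0.07). With a single pair of mice per number, this cannot exclude that some of them were paired by litter. With a replicate block, 5 genes of the set were higher and 9 lower. Pdha1 was then lost (adjusted p = 0.0643, edgeR) and Got1 gained (0.0377), and of all genes 1481 were higher and 1494 lower, compared with 1855 and 1777. Depth of 12016242 reads or more limits mainly Me3, Sdhaf1 and Me2.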
